A study of Mus musculus with 6 samples.

Results

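The TNF receptor costimulators examined here were 10 genes of lymphocytes, taken from the authors' deposited table by gene symbol: the receptor genes Tnfrsf9, Tnfrsf18, Tnfrsf4, Tnfrsf25, Tnfrsf1a, Tnfrsf1b, Tnfrsf8, Tnfrsf14 and Cd27, and the ligand gene Tnfsf14. All 10 were among the 22609 rows of the table and all 10 were among the 16241 genes that the authors tested. RNA had been sequenced from early T cell progenitors (ETP) of the fetal thymus of C57BL/6 mice, in 3 double-knockout (dKO) libraries and 3 control libraries. The dKO mice carried floxed alleles of both E2A and HEB (E2Afl/flHEBfl/flIL7RCre), deleted by a Cre recombinase driven from the Il7r locus, so deletion depended on that locus being active in the cell or its ancestors. The control mice were labelled wild type, and the labels give no Cre or floxed allele for them. Both groups were sorted as CD4-CD8-Lin-CD44+CD25-ckit+ cells, and the dKO cells also as YFP+, so genotype and the YFP gate cannot be told apart. The labels give no fetal age. Nor do they tie single libraries to separate animals, and p-values below therefore reflect library-to-library spread that could be technical.

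E2A (Tcf3) and HEB (Tcf12) belong to the E protein class of helix-loop-helix factors, which bind the E-box motif CANNTG and drive early T and B lymphocyte development. The TNF receptor superfamily consists of transmembrane receptors with cysteine-rich extracellular repeats, which are clustered by trimeric ligands of the TNF family. Costimulatory members such as 4-1BB, GITR and OX40 recruit TRAF adaptors and activate NF-kappaB, are known from activated T cells, regulatory T cells and innate lymphoid cells, and promote survival and cytokine production. A few receptors of the family, among them TNFR1 and DR3, carry a death domain in the cytoplasmic tail and can signal through TRADD.

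Of the 10 genes, 7 lie on chromosome 4, 2 on chromosome 6 (Cd27 and Tnfrsf1a) and 1 on chromosome 17 (Tnfsf14), by the RefSeq annotation of GRCm38.p6. That annotation served for gene order only, since the submitters' processing notes name mm9. Tnfrsf4 and Tnfrsf18 are direct neighbours on chromosome 4 with 0 protein-coding genes between them, and so are Tnfrsf8 and Tnfrsf1b. Between Tnfrsf8 and Tnfrsf9 lie 71 protein-coding genes, between Tnfrsf9 and Tnfrsf25 14, between Tnfrsf25 and Tnfrsf14 28 and between Tnfrsf14 and Tnfrsf4 39. Exons of the antisense gene Gm16008 cover 27.2% of the exonic bases of Tnfrsf18 in GENCODE M21. The sources do not say that the counting used strand, so reads of Tnfrsf18 and Gm16008 cannot be told apart there.

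The promoter windows of 4 genes are shown because these genes changed furthest in each direction while their E-box content differed: Tnfrsf9, Tnfrsf25 and Tnfrsf18, which rose most, and Tnfrsf8, the gene that fell. Each runs 5′ to 3′ on the gene's strand over 300 bases, 250 before and 50 from the transcription start, as given by RefSeq on GRCm38.p6. Capitals mark E-boxes (CANNTG, a palindromic motif class searched on both strands) and matches to the kappaB consensus of NF-kappaB, 10 bases long. Tnfrsf9 has 2 annotated starts and Tnfrsf25 also has 2, of which the downstream one is shown.
Tnfrsf9 upstream start, chr4:150919905-150920204, plus strand: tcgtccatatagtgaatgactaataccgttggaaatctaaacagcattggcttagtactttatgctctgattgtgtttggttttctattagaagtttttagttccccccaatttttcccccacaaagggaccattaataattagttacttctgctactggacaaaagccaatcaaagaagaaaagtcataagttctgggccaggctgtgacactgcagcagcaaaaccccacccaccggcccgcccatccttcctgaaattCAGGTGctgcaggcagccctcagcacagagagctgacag
Tnfrsf9 downstream start, chr4:150927749-150928048, plus strand: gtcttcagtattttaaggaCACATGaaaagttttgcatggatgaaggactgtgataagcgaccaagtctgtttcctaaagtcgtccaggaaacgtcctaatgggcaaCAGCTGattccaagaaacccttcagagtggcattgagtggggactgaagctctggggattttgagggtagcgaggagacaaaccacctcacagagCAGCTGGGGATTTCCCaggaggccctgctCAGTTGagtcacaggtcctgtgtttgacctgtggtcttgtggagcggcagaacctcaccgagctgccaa
Tnfrsf25 downstream start, chr4:152116093-152116392, plus strand: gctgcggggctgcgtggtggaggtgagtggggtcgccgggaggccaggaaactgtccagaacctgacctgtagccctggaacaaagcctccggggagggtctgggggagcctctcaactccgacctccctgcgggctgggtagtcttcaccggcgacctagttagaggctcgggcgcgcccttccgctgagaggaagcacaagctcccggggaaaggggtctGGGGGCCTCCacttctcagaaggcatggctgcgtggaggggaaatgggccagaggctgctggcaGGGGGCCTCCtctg
Tnfrsf18, chr4:156026072-156026371, plus strand: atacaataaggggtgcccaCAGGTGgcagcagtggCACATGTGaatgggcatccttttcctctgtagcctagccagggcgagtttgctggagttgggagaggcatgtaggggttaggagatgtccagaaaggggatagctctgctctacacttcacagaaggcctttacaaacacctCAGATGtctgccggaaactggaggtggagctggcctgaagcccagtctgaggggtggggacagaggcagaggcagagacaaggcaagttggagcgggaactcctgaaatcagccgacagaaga
Tnfrsf8, chr4:145315115-145315414, minus strand: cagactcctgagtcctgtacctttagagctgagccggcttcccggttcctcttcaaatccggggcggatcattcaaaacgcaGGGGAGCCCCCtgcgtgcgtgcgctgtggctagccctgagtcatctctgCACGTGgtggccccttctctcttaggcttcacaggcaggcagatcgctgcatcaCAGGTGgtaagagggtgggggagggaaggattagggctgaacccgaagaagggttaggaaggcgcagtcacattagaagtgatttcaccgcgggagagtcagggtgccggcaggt

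The downstream Tnfrsf9 window held 4 E-boxes, 2 of them CAGCTG, beside overlapping kappaB matches, and the upstream window held 1 E-box. The Tnfrsf18 window held 4 E-boxes, 2 of them overlapping each other, whereas neither Tnfrsf25 window held any. The downstream Tnfrsf25 window held 2 kappaB matches, and the upstream one, which is not shown, held 0. The Tnfrsf8 window held 2 E-boxes and overlapping kappaB matches. Across the 12 promoter windows of the 10 genes, 9 held an E-box, against 72.3% of all 32851 windows in the RefSeq set. CAGCTG was found in 2 of the 12 windows and in 16.3% of all windows, and CACCTG, or CAGGTG on the other strand, in 5 of the 12 and in 20.2% of all. The kappaB consensus was found in 3 of the 12 windows and in 8.46% of all. The motifs CAGCTG and CACCTG are forms of CANNTG, so these counts overlap. Genes that rose and genes that did not were found both with and without an E-box.

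Both targeted genes were lower in dKO: the authors' deposited table gave Tcf3 a mean of 364 in dKO and 8931 in control, and Tcf12 562 in dKO and 3845 in control. Normalised counts summed to 23.4 M in dKO and 22.1 M in control. Kit and Cd44, whose products the gate required, had means of 19067 and 2765 in dKO and 14094 and 3220 in control in the authors' deposited table. Of a list of 7 early progenitor genes that holds both, 3 rose (Kit, Ptprc and Il7r) and 1, Flt3, fell. Over all tested genes, 15.1% were called higher and 13.8% lower. Il2ra, which encodes CD25, stood at 8536 in dKO and 8417 in control in the authors' deposited table, although both groups were sorted without CD25. The table holds 1 mean per group and gene, and a gene is called higher or lower here at the authors' adjusted p under 0.05 (Benjamini-Hochberg over all tested genes). A standard error per gene was not used here. Reads per library could be worked out for low means, because each mean is a sum of whole reads weighted by the size factors of 3 libraries (0.823, 0.952 and 1.02 in control, 1.04, 1.08 and 1.16 in dKO). These libraries are named by size factor, since the files do not tie them to replicate numbers. In bulk samples, a larger share of cells that express a gene and more RNA per cell cannot be told apart.

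The receptor genes Tnfrsf9, Tnfrsf25, Tnfrsf18 and Tnfrsf4 and the ligand gene Tnfsf14 rose in dKO progenitors, and Tnfrsf8 fell. Of the 10 genes, 5 rose, 1 fell and 4 did not pass, against a background of 29.0% of all tested genes called, 15.1% higher and 13.8% lower. All 5 that rose did so by at least 2-fold, a size that 6.86% of all tested genes reached as called rises. The median log2 change of the 10 genes was 1.11, against -0.01 over all genes tested. These genes were chosen with earlier results of the same data known, so the counts describe them and are no independent support.

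**Figure D1:**
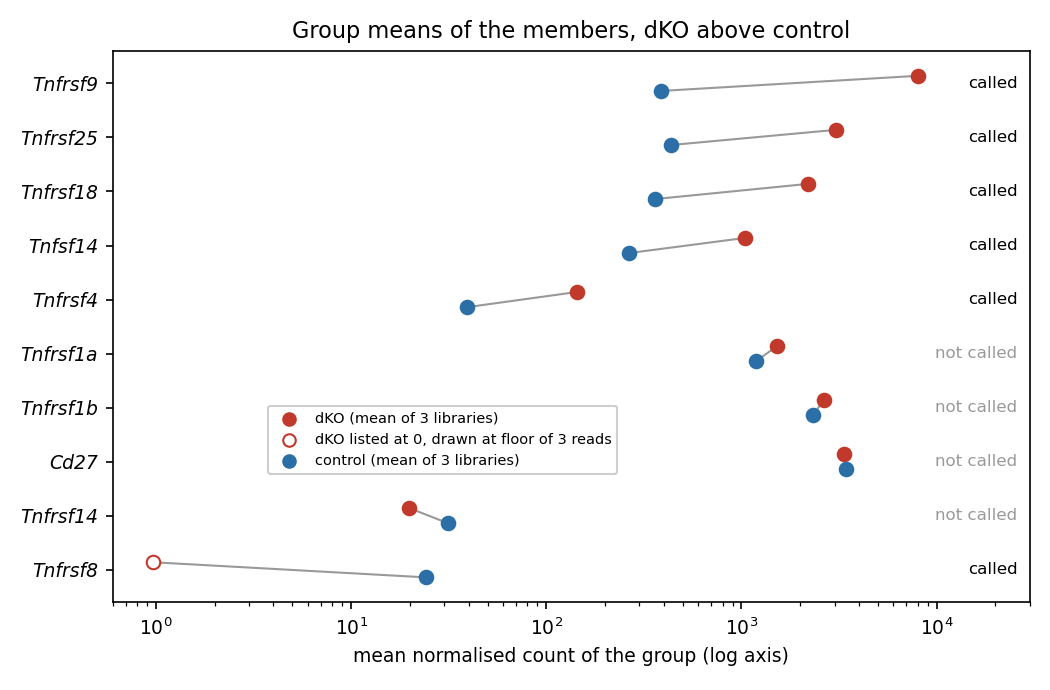
Mean normalised count of each gene in dKO (red, upper point) and control (blue, lower point) on a log axis, each the authors' mean of 3 libraries; the open point is Tnfrsf8, listed at 0 in dKO and drawn at the floor of 3 reads. The upper 5 genes rose, Tnfrsf1a, Tnfrsf1b, Cd27 and Tnfrsf14 were not called, and Tnfrsf8 fell.

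Tnfrsf9 encodes 4-1BB (CD137), a receptor of activated T and NK cells whose ligand is the product of Tnfsf9. Its authors' mean was 7991 in dKO and 386 in control, a 20.7-fold rise and the largest of the 10 genes (authors' adjusted p = 1.36e-13, from the authors' deposited table). It ranked 49th by fold over all genes with a mean above 0 in dKO and in control in the authors' deposited table. Among 16 genes with a dKO mean of at least 1000 and a rise of at least 10-fold, it ranked 3rd by fold but 9th by the authors' p. The reason for the lower rank by p was not tested. Its control mean allowed 4 solutions in whole reads, and in none of them did a control library exceed a normalised count of 922. The dKO mean was above every control library in every solution, which any fold above 3 fixes in advance with 3 control libraries. The dKO values per library could not be recovered, so overlap of single libraries was not tested.

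Tnfrsf25 encodes DR3, a death domain receptor for the cytokine TL1A (Tnfsf15) that costimulates T cells and type 2 innate lymphoid cells. It had the smallest adjusted p of the 10 genes. The authors' deposited table gave it a mean of 3044 in dKO and 437 in control, 6.97-fold higher (authors' adjusted p = 2.21e-72). Its control mean allowed 5 solutions, with single libraries between 46.2 and 1090.

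Tnfrsf18 encodes GITR, a costimulator abundant on regulatory T cells and on activated lymphocytes. The authors' deposited table gave it a mean of 2186 in dKO and 361 in control, 6.05-fold higher (authors' adjusted p = 1.87e-31). In its 4 control solutions, no library exceeded 799. Its direct neighbour Tnfrsf4, which encodes OX40, a receptor of activated T cells, rose as well, at far fewer reads in both groups.

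Tnfrsf4 could be followed in all 6 libraries. The dKO libraries held 220, 95 and 150 reads, or normalised counts of 212, 88.4 and 130 in the libraries of size factor 1.04, 1.08 and 1.16. The control libraries held 40, 46 and 22 reads, or 48.6, 48.3 and 21.5 in those of 0.823, 0.952 and 1.02. Every dKO library was above every control library, and the lowest control library was below the other two by a wide step. Tnfrsf4 averaged 143 ± 62.9 in dKO and 39.5 ± 15.6 in control (SD, n = 3 each; exact permutation test, 2-sided, p = 0.1, the smallest that 3 against 3 libraries allow). The authors' deposited table had it 3.63-fold higher in dKO (authors' adjusted p = 0.0116), a call that a threshold of 0.01 would not give.

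Tnfsf14 encodes LIGHT, the ligand of HVEM (Tnfrsf14) and of the lymphotoxin beta receptor. The authors' deposited table gave it a mean of 1040 in dKO and 265 in control, 3.93-fold higher (authors' adjusted p = 1.39e-24). In the 3 solutions of its control mean, single libraries lay between 76.1 and 566. Its receptor gene Tnfrsf14 did not rise beside it.

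**Figure D2:**
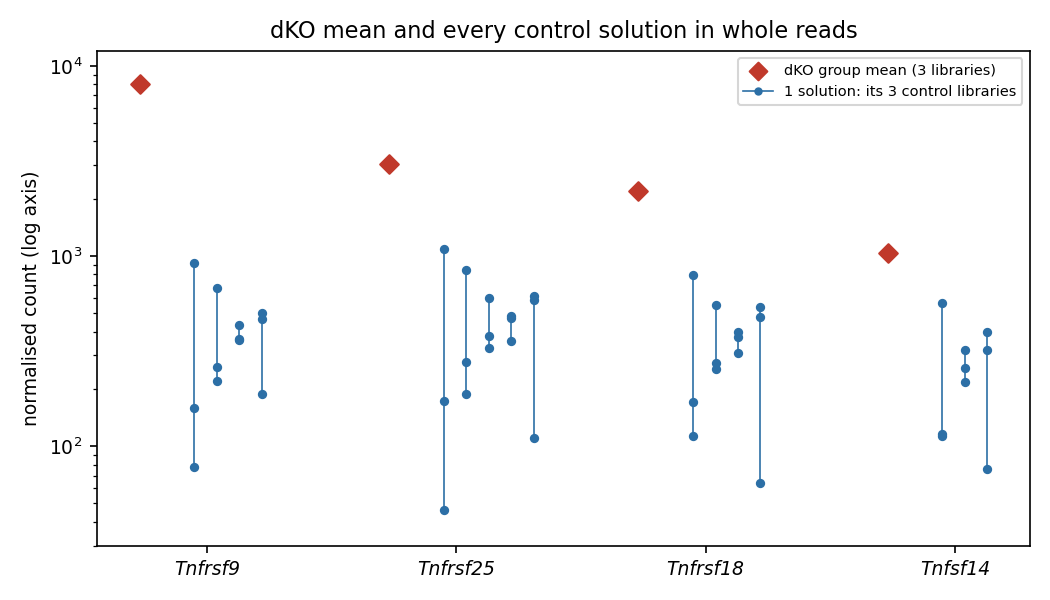
Normalised counts on a log axis of the dKO mean (red diamond, mean of 3 libraries) and of the control libraries (blue points, 1 vertical line per solution in whole reads) for Tnfrsf9, Tnfrsf25, Tnfrsf18 and Tnfsf14. Each dKO mean lies above all control libraries in every solution, 7991 against at most 922 for Tnfrsf9. Any fold above 3 fixes this in advance with 3 control libraries, so it does not show that single libraries were apart.

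Tnfrsf8, which encodes CD30, a receptor of activated lymphocytes, was the gene that fell. It had 0 reads in all 3 dKO libraries. The control libraries held 25, 28 and 13 reads, or normalised counts of 30.4, 29.4 and 12.7, in those of size factor 0.823, 0.952 and 1.02. The groups did not overlap, and the control library of size factor 1.02 was the lowest for Tnfrsf8 as it was for Tnfrsf4. Against a floor of 3 reads over the dKO group, a mean of 0.963, Tnfrsf8 was at least 25.1-fold lower in dKO than its control mean of 24.2 ± 9.94 (SD, n = 3). The authors' deposited table gave this fall an adjusted p of 0.000495. The floor covers counting error only.

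Tnfrsf14, which encodes HVEM, was also a gene of few reads. The dKO libraries held 18, 26 and 21 reads, or normalised counts of 17.3, 24.2 and 18.2, and the control libraries 28, 25 and 35 reads, or 34.0, 26.3 and 34.2. All dKO libraries were below all control libraries, by a margin of 24.2 against 26.3 between the nearest. Tnfrsf14 averaged 19.9 ± 3.73 in dKO and 31.5 ± 4.52 in control (SD, n = 3 each; exact permutation test, 2-sided, p = 0.1, the smallest possible), and the authors' test did not call it (authors' adjusted p = 0.668, from the authors' deposited table). Among the 6279 genes with reads recovered in all 6 libraries, 23.4% had groups that did not overlap, as in Tnfrsf4, Tnfrsf8 and Tnfrsf14. Of the 2166 such genes with a mean over both groups of at least 20, which include Tnfrsf4 and Tnfrsf14 but not Tnfrsf8, 40.8% did not overlap.

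**Figure D3:**
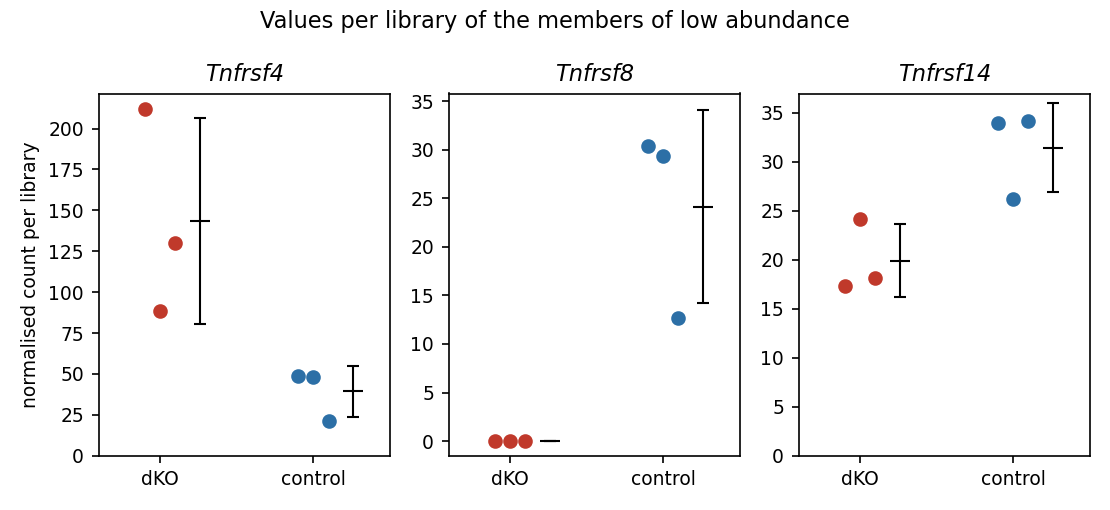
Normalised count of Tnfrsf4, Tnfrsf8 and Tnfrsf14 in each dKO (red) and control (blue) library, with the mean and SD of 3 libraries in black beside the points, each panel with its own linear axis. The groups do not overlap in any panel: Tnfrsf4 was higher in dKO, Tnfrsf8 was at 0 in all dKO libraries, and Tnfrsf14 lay slightly lower in dKO without passing the authors' test.

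The receptors for TNF itself and Cd27 were abundant in both groups and did not pass. Tnfrsf1a, the death domain receptor TNFR1, had a mean of 1527 in dKO and 1184 in control in the authors' deposited table, a log2 change of 0.37 just outside the threshold (authors' adjusted p = 0.0531). When genes with a mean under 10 were left out and the authors' p-values adjusted again, its adjusted p was 0.0425. Tnfrsf1b, the costimulatory receptor TNFR2, had 2646 in dKO and 2318 in control in the authors' deposited table (authors' adjusted p = 0.338). Cd27, a receptor of naive and memory lymphocytes and of lymphoid progenitors, had 3349 in dKO and 3438 in control in the authors' deposited table (authors' adjusted p = 0.899). A p that misses the threshold does not show that these genes were equal in the groups.

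The order of levels within the family differed between the groups when means were divided by exon length (the union of GENCODE M21 exons, an annotation the authors need not have used). In dKO, Tnfrsf9 came first with a mean normalised count of 2936 per kilobase, followed by Cd27 with 1438, Tnfrsf18 with 1434 and Tnfrsf25 with 1337. Below them came Tnfrsf1b with 693, Tnfrsf1a with 589, Tnfsf14 with 563, Tnfrsf4 with 105, Tnfrsf14 with 13.8 and Tnfrsf8 with 0 per kilobase. In control, Cd27 came first with 1477 per kilobase, ahead of Tnfrsf1b with 607 and Tnfrsf1a with 457. Tnfrsf18 followed with 237, Tnfrsf25 with 192, Tnfsf14 with 143, Tnfrsf9 with 142, Tnfrsf4 with 28.9, Tnfrsf14 with 21.9 and Tnfrsf8 with 6.98 per kilobase. Tnfrsf9 thus ranked 1st of 10 in dKO and 7th in control. Steps such as those between Cd27, Tnfrsf18 and Tnfrsf25 in dKO, or between Tnfsf14 and Tnfrsf9 in control, are small, and without values per library whether they exceed the spread was not tested.

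Among genes listed as ligands, ligand partners (Ltb) or counter-receptors of the members, all calls were in 1 direction. Of 12 listed, Cd70, the ligand of CD27, was at 0 in both groups. Of the 11 tested in the authors' deposited table, 6 rose (the member Tnfsf14 is 1 of them), 0 fell (also 0 at an unadjusted p under 0.05, by the authors' DESeq test) and 5 did not pass. Their median log2 change was 1.97, which is the value of the member Tnfsf14 itself. Over all tested genes, 15.1% were called higher and 13.8% lower. Tnf, the ligand of both TNF receptors, had a mean of 614 in dKO and 141 in control in the authors' deposited table (log2 change 2.12, authors' adjusted p = 3.01e-18). Lta, which binds the same receptors, had the largest change, a log2 change of 4.26, and Ltb, which anchors it at the cell surface, rose by 2.03 on the log2 scale in the authors' deposited table. Btla and Cd160, immunoglobulin family partners of HVEM, rose with Tnfsf14. In the authors' deposited table Btla had a mean of 516 in dKO and 92.2 in control, and Cd160 4229 in dKO and 1897 in control.

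The dedicated ligands of the 4 costimulatory receptors that rose were low and did not pass. Tnfsf9, the ligand of 4-1BB, had normalised counts of 144, 93.9 and 116 in the dKO libraries of size factor 1.04, 1.08 and 1.16, and 95.9, 127 and 70.3 in the control libraries of 0.823, 0.952 and 1.02. The groups overlapped (exact permutation test, 2-sided, p = 0.5, n = 3 each). Tnfsf15, the ligand of DR3, had 7.71, 19.5 and 8.65 in the dKO libraries and 1.21, 5.25 and 0.976 in the control libraries, all higher in dKO but from 39 reads in dKO and 7 in control (authors' adjusted p = 0.389, from the authors' deposited table). Tnfsf4, the ligand of OX40, averaged 7.38 ± 10.6 in dKO and 9.29 ± 5.68 in control (SD, n = 3 each), and 21 of its 24 dKO reads lay in the library of size factor 1.08. Tnfsf18, the ligand of GITR, had 12 reads in dKO, 11 of them in the library of size factor 1.08, and 0 in control. Tnfsf8, the ligand of CD30, had 27.0, 113 and 39.8 in the dKO libraries and 20.6, 38.9 and 30.3 in the control libraries, with overlap.

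Most of the rest of the receptor family was not called, as with most genes tested. Of 17 other TNF receptor superfamily genes tested, 15 did not pass, 1 rose and 1 fell, and the median log2 change was 0.26. By comparison, 29.0% of all tested genes were called. Fas, the death receptor, was the gene that rose, with 119, 233 and 118 in the dKO libraries of size factor 1.04, 1.08 and 1.16, and 14.6, 11.6 and 16.6 in the control libraries of 0.823, 0.952 and 1.02. It averaged 157 ± 65.8 in dKO and 14.2 ± 2.54 in control (SD, n = 3 each), with no overlap. The authors' deposited table gave this rise an adjusted p of 2.47e-05. Ltbr, the lymphotoxin beta receptor and the other receptor of LIGHT, fell to 202 in dKO, against 604 in control, in the authors' deposited table (log2 change -1.58, authors' adjusted p = 1.32e-11). Of the genes that did not pass, Relt, Tnfrsf26 and Tnfrsf21 were the most abundant, with 1362, 1489 and 1168 in dKO and 1655, 1577 and 1473 in control in the authors' deposited table.

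Among 8 other TNF ligand genes tested there were 3 rises and 1 fall, and 4 missed the threshold. The background was 15.1% of all tested genes called higher and 13.8% lower. Tnfsf11 (RANKL) had a mean of 1691 in dKO and 278 in control, and Tnfsf10 (TRAIL) 3669 in dKO and 1509 in control, in the authors' deposited table. Cd40lg, the CD40 ligand, had normalised counts of 13.5, 12.1 and 14.7 in the dKO libraries and 0 in all control libraries (authors' adjusted p = 0.028, from the authors' deposited table). Fasl fell to 152 in dKO, against 986 in control, in the authors' deposited table (log2 change -2.70), opposite in direction to its receptor gene Fas.

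Signalling genes downstream of the receptors were called in both directions. Among 29 TRAF and receptor-proximal genes there were 12 rises and 2 falls, 15 missed the threshold, and the median log2 change was 0.28. Of all tested genes, 15.1% were called higher and 13.8% lower. Traf1, an adaptor of TNFR2 and 4-1BB, had normalised counts of 157, 148 and 107 in the dKO libraries of size factor 1.04, 1.08 and 1.16, and 37.7, 0 and 38.1 in the control libraries of 0.823, 0.952 and 1.02 (log2 change 2.44, authors' adjusted p = 3.52e-06, from the authors' deposited table). Of these 29 genes, Traf1 and Traf5, an adaptor of OX40, CD27 and CD30, were the 2 that rose by at least 2-fold. Traf5 had a mean of 450 in dKO and 164 in control in the authors' deposited table. Tnfaip3, which encodes the inhibitor A20, rose by 0.91 on the log2 scale and Cyld, a deubiquitinase that restrains the pathway, by 0.59 in the authors' deposited table. The other called rises of the list were Tab2, Ripk3, Traf2, Tab3, Rnf31, Tnfaip8, Tradd and Xiap, each by less than 2-fold. The 2 falls of this list were Siva1 and Tab1. Siva1, whose product binds the tail of CD27, had a log2 change of -0.60 in the authors' deposited table. Tab1, a partner of the kinase TAK1, had -0.45.

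Among 14 NF-kappaB subunit and inhibitor genes there were 9 rises and 1 fall, 4 missed the threshold, and the median log2 change was 0.57. The background was again 15.1% of all tested genes called higher and 13.8% lower. Relb, a subunit of the noncanonical pathway, had a mean of 619 in dKO and 144 in control (log2 change 2.11, authors' adjusted p = 6.4e-18), and its partner Nfkb2 1617 in dKO and 912 in control, in the authors' deposited table. The inhibitor gene Nfkbia had 2544 in dKO and 1394 in control, and the atypical inhibitor gene Nfkbiz 858 in dKO and 252 in control, in the authors' deposited table. Nfkbie, another inhibitor gene, fell to 486 in dKO, against 1082 in control, in the authors' deposited table (log2 change -1.16). Nfkb1, Ikbkb and Ikbkg, with means of 4555, 3376 and 1492 in dKO and 4295, 3423 and 1606 in control in the authors' deposited table, were the most abundant of those that did not pass.

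**Figure D4:**
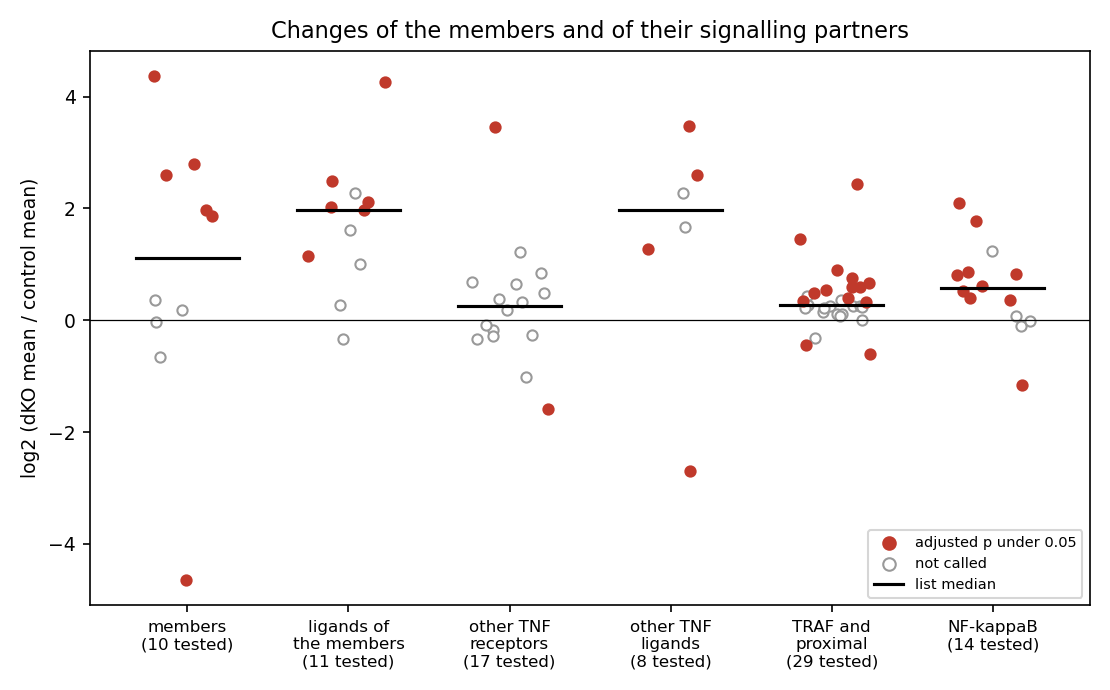
log2 of the dKO mean over the control mean for each tested gene of the 10 members and of 5 lists of partners, with called genes in red, genes not called as open circles and the list median as a black bar; genes at 0 in 1 group are drawn at their bound and 3 genes with both groups at or under the floor are left out. The medians are 1.11 for the members, 1.97 for the ligands of the members and 0.26 for the other TNF receptors. Tnfsf14 is in both of the first lists, and the ligand median is its own value.

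Some chromosomal neighbours of the members were called higher and some lower. Of 16 neighbouring protein-coding genes that are not members, 15 were in the table, of which 4 rose, 2 fell and 9 were not called. Cd70, at 0 in both groups, is among these 9 and was not tested. Over all tested genes, 15.1% were called higher and 13.8% lower. On both sides of Tnfrsf25, Plekhg5 and Espn rose by 1.14 and 1.09 on the log2 scale in the authors' deposited table, less than the 2.80 of Tnfrsf25. Beside Tnfrsf4 and Tnfrsf18, Sdf4 rose by 0.87 on the log2 scale, and Tapbpl beside Cd27 by 0.83, in the authors' deposited table. Beside Tnfrsf9, Per3 fell by 1.05 on the log2 scale and Park7 had means of 5906 in dKO and 6422 in control without passing, in the authors' deposited table. Hes5, a Notch target gene beside Tnfrsf14, fell by 3.50 on the log2 scale in the authors' deposited table. Tnfrsf8 was at 0 in dKO while its direct neighbour Tnfrsf1b did not pass.

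Genes listed as cell type markers changed beside these genes, against a background of 15.1% of all tested genes called higher and 13.8% lower. Some were abundant in the control progenitors too, among them Mpo (7310 in control), Cpa3 (5824) and Cd3e (3224). Whether the listed genes mark other cells in these samples was not tested. Of 10 innate lymphoid markers, 9 rose and 1 did not pass, with summed means of 45822 in dKO and 13581 in control. Gata3 (22961 in dKO, 7051 in control) and Id2 (12733 in dKO, 3583 in control) made up most of both sums. Of 5 regulatory T cell markers, 1 rose (Ikzf4) and 2 fell (Ctla4 and Lrrc32), with summed means of 9475 in dKO and 9216 in control. Most of that sum was Il2ra, and without it the sums were 939 in dKO and 799 in control. The defining regulatory T cell gene Foxp3 had 10.2 in dKO and 10.1 in control in the authors' deposited table. Of 6 mature T cell markers, 4 fell, with summed means of 1231 in dKO and 3985 in control, most of which was Cd3e in both groups. Of 8 tested myeloid and dendritic cell markers 4 fell (Lyz2, Csf1r, Itgax and Flt3) and none was called higher. Cd74 was higher at an unadjusted p under 0.05, by the authors' DESeq test (228 in dKO, 93.5 in control). The sums were 1567 in dKO and 3108 in control, with Cd14 at 0 in both. Flt3, which is also in the early progenitor list, had 327 in dKO and 1080 in control. Of 6 tested mast cell and granulocyte markers, 1 rose (Ms4a2) and 2 fell (Cpa3 and Mpo), with sums of 3805 in dKO and 13273 in control and S100a8 and S100a9 at 0 in both. Cpa3 and Mpo made up most of these sums in both groups. Of 7 tested markers of epithelium and stroma 1 fell, Pecam1, and none was called higher (2 were higher at an unadjusted p under 0.05, by the authors' DESeq test), with a median log2 change of 0.66. Pecam1 made up most of the summed means of 2516 in dKO and 2920 in control, which without it were 453 in dKO and 281 in control. None of 3 tested erythroid markers was called (0 also at an unadjusted p under 0.05, by the authors' DESeq test), with sums of 110 in dKO and 158 in control. The part of changes in cell type in the values above was not tested.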

How the data were processed

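RNA from sorted cells was amplified with a low-input SMARTer kit and sequenced on an Illumina HiSeq, per the labels' protocols. Tools named in the submitters' processing notes, with no role attached, are TopHat2 2.0.14, bcl2fastq 1.8.4 and DESeq 2, and the build is mm9. How genes were counted is not given in the sources used here. The single deposited table, per its file headers, has 1 mean normalised count per gene and group made by the authors (a signal, with no value per library), their fold (a ratio, dKO over control), p-value and adjusted p-value. Adjusting the deposited p-values again gave the deposited adjusted values within 4.08e-07.

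The design had planned a count test per library, and the authors' own test if only group means were deposited, which was the case. Genes were called at the authors' adjusted p under 0.05, and the log2 change is that of the dKO mean over the control mean. Where a group was at 0, a floor equal to 3 of its reads was used (0.963 in dKO and 1.21 in control), which bounds the fold. No fold was taken where both groups were at or under this floor.

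Whole reads per library were recovered by solving each mean for whole reads weighted by 3 size factors, fitted to all means up to 100. All 5361 dKO and 5259 control means up to 100 had exactly 1 solution within the rounding of the file. Between 100 and 200 all 932 dKO means and 54.0% of 991 control means did. The recovery was tested on simulated data. Reads amplified from few cells are not independent molecules.

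The members and lists were chosen with earlier results of these data known. The named genes are all 10 members, called genes of the partner lists with up to 3 of the most abundant that did not pass, and chromosomal neighbours. Tnfsf4, Tnfsf18 and Cd70 were chosen after their values were seen. The plan put called genes with the smallest adjusted p first, which the TRAF list did not follow. Log2 changes are given there for Tnfaip3, Cyld, Siva1 and Tab1. Tab2, Ripk3, Traf2, Tab3, Rnf31 and Tnfaip8, each with a smaller authors' adjusted p than Tnfaip3, are listed by name only. One marker list is not reported here. One symbol, Otulin, and 1 neighbour were matched through a synonym. Python 3.11.15, numpy 2.4.6, pandas 2.3.3 and scipy 1.17.1 were used.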

Additional observations from a re-analysis of the deposited data

How the results depend on the processing

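The count of members called stayed at 5 higher and 1 lower with a fold of at least 2 required. It was also the same when groups were scaled to equal totals (a shift of -0.08 on the log2 scale). Centring on the median of genes with a mean of at least 100 (-0.01) left it the same too. Scaling and centring kept the authors' p-values, so they could change only the direction of a call, not which genes were called. The direction of all 10 genes was kept under every alternative that gave a value. Tnfrsf4 was not called at an adjusted p under 0.01. Tnfrsf1a was called when the authors' DESeq p-values were adjusted again without genes whose mean was low, giving an adjusted p of 0.0425 with a minimum mean of 10 and 0.0382 with a minimum of 100. With the filter at 100, 0 members were called lower, since Tnfrsf8, Tnfrsf4 and Tnfrsf14 were no longer tested, and the median log2 change was 1.97 over the members left. A required fold of 2 left 14 of 31 partner genes higher and 3 of 5 lower, and 1114 of 2460 genes higher and 925 of 2247 lower over all genes.

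Without 1 library each, Tnfrsf4 lay between 1.47 and 2.11 on the log2 scale, Tnfrsf14 between -0.83 and -0.57, and the bound of Tnfrsf8 between -4.96 and -4.06. The smaller bound arises because the floor of 3 reads is then spread over fewer dKO libraries. For Tnfrsf4 the ends come from leaving out the dKO libraries of size factor 1.04 and 1.08. Other members could not be refitted without a library, and DESeq2 was not run, since values per library are lacking for them. No paired analysis was possible because the table carries group means without replicate numbers.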
